A study of Mus musculus with 2 samples.

Results

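Proteasome genes were described in RNA-seq of satellite cells, stem cells of skeletal muscle, taken from tibialis anterior muscle of C57BL/6 mice. 1 library came from Cipc scko mice, whose sample title reads Cipc-/-, and 1 from Cipc flox/flox mice, the control that carries the floxed Cipc alleles and whose title reads Cipc+/+. The sources used here do not give the driver of the deletion, the age and sex of the mice or the number of mice behind each library. The members were the protein-coding genes with a symbol that begins with Psma, Psmb, Psmc, Psmd, Psme, Psmf or Psmg and a number, and Pomp. The count table held 50 such genes among 16190, out of 51 in the annotation. The remaining gene, Psma8, was not analysed here. The comparison asked for sets the constitutive subunits against Psmb8, Psmb9, Psmb10, Psme1 and Psme2.

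The proteasome is the protease that degrades proteins tagged with ubiquitin. Its 20S core is a barrel of stacked rings, in which alpha subunits (Psma genes) form the gates and beta subunits (Psmb genes) form the chamber, and Psmb5, Psmb6 and Psmb7 carry the active sites. The 19S cap binds ubiquitin, unfolds the substrate with ATPases (Psmc genes) and feeds it into the core with the help of non-ATPase subunits (most Psmd genes). Interferon is known to induce Psmb8, Psmb9 and Psmb10, which take the places of Psmb5, Psmb6 and Psmb7 in newly built cores (the immunoproteasome), and the PA28 activator made of the products of Psme1 and Psme2. The peptides that result are loaded onto MHC class I molecules.

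Promoters of 3 induced genes and of 2 constitutive subunits are shown, each with a match to a motif named below. The windows of Psmb10 and Psme2, which are also among the induced genes, held no match to these motifs and are not shown. Each line runs 5′ to 3′ on the gene's own strand, from 250 bases before the RefSeq start to 50 bases from it on (RefSeq, GRCm38.p6). Capitals mark matches, on either strand, to the core of the interferon-stimulated response element (GAAA, any 2 bases, GAAA), the gamma-activated site (TTCNNNGAA), a core of the antioxidant response element (TGACNNNGC) or the CCAAT box.
Psmb8 promoter, chr17:34197945-34198244, plus strand: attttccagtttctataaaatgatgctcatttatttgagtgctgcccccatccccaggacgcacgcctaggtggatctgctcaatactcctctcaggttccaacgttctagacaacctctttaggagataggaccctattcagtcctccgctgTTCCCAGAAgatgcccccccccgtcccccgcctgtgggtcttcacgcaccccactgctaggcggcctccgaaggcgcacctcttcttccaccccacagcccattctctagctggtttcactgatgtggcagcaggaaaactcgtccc
Psmb9 promoter, chr17:34187281-34187580, minus strand: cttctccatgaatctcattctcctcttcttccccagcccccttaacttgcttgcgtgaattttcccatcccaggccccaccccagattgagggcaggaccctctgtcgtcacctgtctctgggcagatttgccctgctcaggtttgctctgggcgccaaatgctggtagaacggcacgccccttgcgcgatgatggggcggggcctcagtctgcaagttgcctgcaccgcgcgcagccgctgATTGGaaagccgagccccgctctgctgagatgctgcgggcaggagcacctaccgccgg
Psme1 promoter, chr14:55578244-55578543, plus strand: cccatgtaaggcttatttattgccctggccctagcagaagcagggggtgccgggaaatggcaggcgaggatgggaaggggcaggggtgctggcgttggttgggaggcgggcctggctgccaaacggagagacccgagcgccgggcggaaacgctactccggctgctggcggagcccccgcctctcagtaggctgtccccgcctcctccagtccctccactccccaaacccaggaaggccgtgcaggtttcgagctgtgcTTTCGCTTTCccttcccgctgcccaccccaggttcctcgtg
Psmb5 promoter, chr14:54617946-54618245, minus strand: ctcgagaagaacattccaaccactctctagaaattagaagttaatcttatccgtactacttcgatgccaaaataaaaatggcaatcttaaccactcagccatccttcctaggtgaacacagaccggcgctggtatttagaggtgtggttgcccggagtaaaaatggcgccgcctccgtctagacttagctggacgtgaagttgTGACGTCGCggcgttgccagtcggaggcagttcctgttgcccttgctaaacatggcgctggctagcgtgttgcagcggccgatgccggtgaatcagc
Psmb6 promoter, chr11:70525107-70525406, plus strand: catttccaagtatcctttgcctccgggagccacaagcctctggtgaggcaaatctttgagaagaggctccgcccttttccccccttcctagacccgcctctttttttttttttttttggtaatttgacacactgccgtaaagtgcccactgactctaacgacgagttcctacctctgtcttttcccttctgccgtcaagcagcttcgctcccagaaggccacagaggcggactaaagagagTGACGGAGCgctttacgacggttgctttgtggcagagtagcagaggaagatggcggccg
A match describes letters and not a bound site. The gamma-activated site, a sequence of interferon-responsive promoters, was matched in the Psmb8 window at 97 to 89 bases before the start. The interferon-stimulated response element, known to bind interferon regulatory factors, was matched in Psme1 on the reverse strand at 9 to 18 bases after the start. The Psmb9 window held a CCAAT box on the reverse strand at 8 to 4 bases before the start. The Psmb5 and Psmb6 windows each held the antioxidant response element core, the kind of sequence that the proteasome gene activator NFE2L1 is known to bind, at 47 to 39 and at 9 to 1 bases before the start.

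With 1 library per genotype no difference below has a replicate check, no p-value was computed, and the values describe the 2 libraries and not the genotypes. The Cipc scko library held 16830168 counts and the Cipc flox/flox library 16145870. Cipc, the targeted gene (a repressor of the clock factors CLOCK and BMAL1), had 594 counts in Cipc scko, against 1907 in Cipc flox/flox, with a log2 ratio of -1.61 (-1.74 to -1.47). Xist had 4 counts in Cipc scko, against 3898 in Cipc flox/flox. The Y-linked genes Ddx3y, Kdm5d and Uty had 511, 348 and 155 counts in Cipc scko, against 0 in Cipc flox/flox. By these genes the Cipc scko library reads as male and the control as female. Genotype and sex therefore cannot be told apart for any difference below. Of 12 satellite cell markers, 11 passed the filter, 3 were called higher and 3 lower. By the same rule, described below, 21.2% of all genes that passed were called higher and 15.9% lower. The defining marker Pax7 had 998 counts in Cipc scko, against 43 in Cipc flox/flox, so it was present in both but low in the control. Msc, also on that list, had 0 counts in Cipc scko, against 288 in Cipc flox/flox. In RNA from many cells, fewer cells of a type and less RNA per cell cannot be told apart.

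Values are CPM (counts scaled to library size) after TMM scaling, and ratios are Cipc scko over Cipc flox/flox on the log2 scale with a prior count of 0.5. Intervals are 95% exact (Clopper-Pearson) intervals of how each gene's counts divide between the libraries, and cover counting error only. Genes with at least 1 CPM in a library and 20 counts over both entered, and a call of higher or lower needed a difference of at least 2-fold and an interval that excluded equality. By that rule 49 of 50 members entered, 7 were called higher and 0 lower, and 42 were not called. Over all 12874 genes that entered, 21.2% were called higher, 15.9% lower and 37.2% in either direction. The count of called members was therefore not above the background. The called members were all 5 of the induced genes that the comparison names, Psme2b and Psmg4, while 0 of 31 constitutive subunits were called. Psmb11, the thymus-specific beta subunit, had 0 counts in Cipc scko, against 2 in Cipc flox/flox and did not enter.

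**Figure D1:**
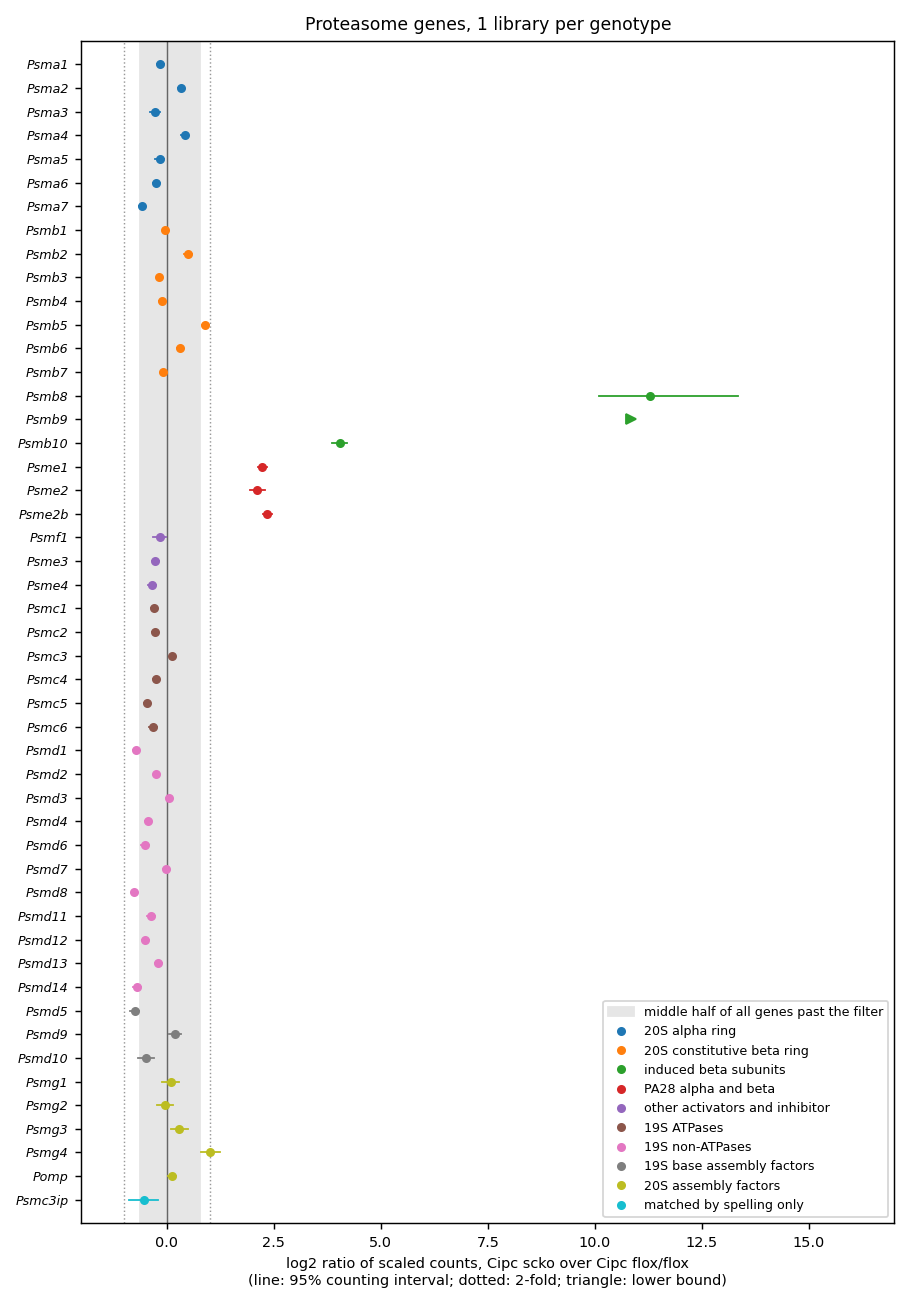
Log2 ratio of scaled counts, Cipc scko over Cipc flox/flox, of the 49 proteasome genes that entered, 1 point per gene, coloured by role, with the 95% counting interval as a line. The triangle is the lower bound for Psmb9, which had 0 counts in Cipc flox/flox. The grey band runs from the lower to the upper quartile of all genes (-0.62 to 0.78) and the dotted lines mark 2-fold. Psmb8, Psmb9, Psmb10, Psme1, Psme2 and Psme2b lie to the right of all other members.

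The immunoproteasome beta subunits were higher in Cipc scko. Psmb8 (ENSMUSG00000024338, GRCm38 chromosome 17, 34197721 to 34201454, plus strand), which takes the place of Psmb5 at the chymotrypsin-like site, had 10723 counts in Cipc scko, against 4 in Cipc flox/flox (668 against 0.236 CPM). Its log2 ratio was 11.29 (10.11 to 13.34). Psmb9 (ENSMUSG00000096727, chromosome 17, 34181987 to 34187764, minus strand), the counterpart of Psmb6 at the caspase-like site, had 5222 counts in Cipc scko, against 0 in Cipc flox/flox, so it was at least 1835-fold higher against a floor of 3 counts in the control library. The lower limit of its counting interval was 1492-fold. Both genes were thus among the more counted proteasome genes of the Cipc scko library and at or near 0 in the control.

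Psmb10 (ENSMUSG00000031897, chromosome 8, 105935735 to 105938444, minus strand), the counterpart of Psmb7 at the trypsin-like site, differed from these 2 in that the control also expressed it. It had 4595 counts in Cipc scko, against 295 in Cipc flox/flox (286 against 17.4 CPM), which is 16.4-fold (14.6 to 18.5) and a log2 ratio of 4.04 (3.87 to 4.21). Of all genes that entered, 6.80% had a ratio as high or higher. The Psmb10 interval did not overlap that of Psmb8, and its upper limit lay below the bound for Psmb9. Summed, the 3 induced beta genes stood at 1279 CPM in Cipc scko, against 17.7 CPM in Cipc flox/flox, 72.3-fold (64.6 to 81.5).

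The PA28 activator genes were also higher, by less. Psme1 (ENSMUSG00000022216, chromosome 14, 55578123 to 55581529, plus strand), which encodes PA28 alpha, had 3564 counts in Cipc scko, against 802 in Cipc flox/flox (222 against 47.4 CPM), with a log2 ratio of 2.23 (2.12 to 2.34) and 4.68-fold. Psme2 (ENSMUSG00000079197, chromosome 14, 55587441 to 55591113, minus strand), which encodes PA28 beta, had 1288 counts in Cipc scko, against 313 in Cipc flox/flox (80.2 against 18.5 CPM), with a log2 ratio of 2.12 (1.94 to 2.30) and 4.33-fold. The intervals of these partners overlapped, and both lay below that of Psmb10.

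Psme2b, on chromosome 11 (48945354 to 48946190), is a copy of Psme2 with 99.4% identity over 794 aligned bases, so reads of the pair cannot be told apart with certainty. It had 4290 counts in Cipc scko, against 893 in Cipc flox/flox, more than Psme2 in each library, and a log2 ratio of 2.34 (2.24 to 2.45). Summed over both copies there were 5578 counts in Cipc scko, against 1206 in Cipc flox/flox, with a log2 ratio of 2.29 (2.20 to 2.38), whose interval overlaps that of Psme1.

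The third PA28 gene, the activator PA200 and the inhibitor were not called. Psme3, the nuclear PA28 gamma, stood at 169 CPM in Cipc scko, against 204 CPM in Cipc flox/flox, with a log2 ratio of -0.27. Psme4, which encodes PA200, stood at 96.7 CPM in Cipc scko, against 122 CPM in Cipc flox/flox (-0.34). Psmf1, which encodes the inhibitor PI31, stood at 41.7 CPM in Cipc scko, against 47.0 CPM in Cipc flox/flox (-0.17). Each of these intervals lay below 0, and none of the ratios reached 2-fold.

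The induced genes made up a different share of proteasome counts in each library. The 5 genes and Psme2b took 20.4% (20.2 to 20.6, exact interval) of 145318 member counts in Cipc scko, against 1.62% (1.55 to 1.68) of 142659 in Cipc flox/flox. All members together took 0.863% of the Cipc scko library and 0.884% of the Cipc flox/flox library, close to each other.

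The 31 constitutive subunits lay within a narrow range. Their median log2 ratio was -0.25, with quartiles of -0.41 and -0.03, a range of -0.78 to 0.90 and an SD of 0.38 over genes. All genes had a median of 0.01, quartiles of -0.62 and 0.78 and an SD of 2.48. That set reaches down to the filter of 1 CPM, so its spread is not matched for level. Of genes with a mean of at least 50 CPM, where every constitutive subunit lay, 13.6% were called higher, 13.2% lower and 26.8% in either direction, against 0 of the 31. The counting interval lay above 0 for 6 constitutive subunits, below 0 for 22 and included 0 for 3. The median of the 5 induced genes was 4.04, or 4.28 above the constitutive median. Summed, the constitutive subunits stood at 6533 CPM in Cipc scko, against 7531 CPM in Cipc flox/flox, with a log2 ratio of -0.21 (-0.22 to -0.19).

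Among the constitutive subunits, the beta ring had the median nearest to 0 and the 19S non-ATPases the lowest. The 7 alpha ring genes had a median log2 ratio of -0.17, the value of Psma5. Psma5 has a near-identical copy, Gm8394 (98.6% identity), with 1058 counts in Cipc scko, against 1176 in Cipc flox/flox. Reads of that pair cannot be told apart with certainty. Psma7 was the lowest, with 198 CPM in Cipc scko, against 298 CPM in Cipc flox/flox (-0.59). Psma4 was the highest, with 160 CPM in Cipc scko, against 120 CPM in Cipc flox/flox (0.41), and has a near-identical copy in the annotation, Gm6542. The 7 constitutive beta genes had a median of -0.04, from -0.18 in Psmb3 (245 CPM in Cipc scko, 277 CPM in Cipc flox/flox) to 0.90 in Psmb5. The 6 ATPases, the motor of the 19S base, had a median of -0.30, from -0.47 in Psmc5 (189 CPM in Cipc scko, against 262 CPM in Cipc flox/flox) to 0.13 in Psmc3 (513 CPM in Cipc scko, against 470 CPM in Cipc flox/flox).

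The 11 non-ATPases had a median of -0.44. Psmd8, a lid subunit and the member with the most counts in the control, had 7504 counts in Cipc scko, against 13540 in Cipc flox/flox (467 against 800 CPM), with a log2 ratio of -0.78 (-0.82 to -0.73). Psmd1, a scaffold of the base, stood at 223 CPM in Cipc scko, against 371 CPM in Cipc flox/flox (-0.74). Psmd14, the deubiquitinase that removes ubiquitin chains before degradation, stood at 81.8 CPM in Cipc scko, against 133 CPM in Cipc flox/flox (-0.70). At the other end Psmd3 stood at 275 CPM in Cipc scko, against 266 CPM in Cipc flox/flox (0.05), and its interval included 0. Ratios of 10 of these 11 genes were below 0, none by 2-fold.

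Of the constitutive catalytic genes, Psmb5 lay just below the 2-fold limit. It had 3256 counts in Cipc scko, against 1845 in Cipc flox/flox (203 against 109 CPM), with a log2 ratio of 0.90 (0.81 to 0.98) and 1.86-fold. Psmb6 stood at 279 CPM in Cipc scko, against 226 CPM in Cipc flox/flox (0.30, 0.24 to 0.36), and Psmb7 at 240 CPM in Cipc scko, against 255 CPM in Cipc flox/flox (-0.09, -0.15 to -0.02). The 3 constitutive genes thus had ratios of -0.09 to 0.90, and none was called. Psmb5 has a near-identical copy in the annotation, Gm3375, which was not analysed here.

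Assembly factors showed 1 call. Psmg4, which pairs with Psmg3 to chaperone the alpha ring, had 459 counts in Cipc scko, against 239 in Cipc flox/flox (28.6 against 14.1 CPM), with a log2 ratio of 1.02 (0.79 to 1.25). It was just past 2-fold, and scaling by total counts, DESeq2 size factors, FPKM or centring on its chromosome each took it below the limit. Of all genes, 21.1% had a ratio as high or higher. Its partner Psmg3 stood at 28.1 CPM in Cipc scko, against 23.1 CPM in Cipc flox/flox (0.28), and Psmg1 and Psmg2, the other chaperone pair, had log2 ratios of 0.09 and -0.04 with intervals that included 0. Pomp, which matures the core and is itself degraded by it, stood at 98.0 CPM in Cipc scko, against 90.2 CPM in Cipc flox/flox (0.12). The chaperones of the 19S base were not called either: Psmd5 had a log2 ratio of -0.76, Psmd10 of -0.49 and Psmd9 of 0.19. Psmc3ip, a recombination cofactor that meets the symbol rule by spelling and is no subunit, had 120 counts in Cipc scko, against 184 in Cipc flox/flox (-0.54).

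Levels can be compared between genes only per length, and the deposited FPKM had a limit here. FPKM were the counts rescaled, and the length they imply exceeded that of the longest annotated transcript, by over 1%, for 41 of 50 members and for 76.3% of 11098 genes with over 50 counts in Cipc scko. Psmb9, for example, had an implied length of 6303 bases and a principal coding transcript of 1352, whereas Psmb10 had 1270 and 1311. Ratios of FPKM between genes are therefore given beside CPM per kilobase of the principal coding transcript (APPRIS principal with a CCDS entry, GENCODE vM21), a scale added after the data were seen.

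By FPKM, Psmb8 stood at 166 in Cipc scko, against 0.0644 in Cipc flox/flox, and Psmb5 at 222 in Cipc scko, against 131 in Cipc flox/flox. Psmb8 over Psmb5 was 0.745 (0.717 to 0.775) in Cipc scko, against 0.000491 in Cipc flox/flox. Per kilobase of the principal transcript the same ratio was 1.82 (1.75 to 1.89) in Cipc scko, against 0.00120 in Cipc flox/flox. Which of Psmb8 and Psmb5 was higher in Cipc scko thus depended on the length used. Psmb9 over Psmb6 was 0.576 by FPKM and 0.689 per kilobase in Cipc scko, below 1 on both scales, and 0 in Cipc flox/flox. Psmb10 over Psmb7 was 3.35 by FPKM and 1.06 (1.01 to 1.10) per kilobase in Cipc scko, and 0.192 by FPKM and 0.0606 (0.0537 to 0.0682) per kilobase in Cipc flox/flox.

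Over all 3 pairs the share of the induced genes moved little with the length in Cipc scko and more than 2-fold in Cipc flox/flox. The induced genes made 53.6% of the summed FPKM of the 6 catalytic genes in Cipc scko, against 4.87% in Cipc flox/flox. Of their summed CPM per kilobase they made 52.7% in Cipc scko, against 2.11% in Cipc flox/flox. Summed CPM per kilobase of Psmb5, Psmb6 and Psmb7 was 781 in Cipc scko, against 624 in Cipc flox/flox, and that of Psmb8, Psmb9 and Psmb10 was 869 in Cipc scko, against 13.4 in Cipc flox/flox. The sum over the 6 genes was 1650 CPM per kilobase in Cipc scko, against 637 in Cipc flox/flox. On this scale the constitutive sum in Cipc scko was not below that in Cipc flox/flox. These are transcript levels and not subunits in assembled proteasomes.

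**Figure D2:**
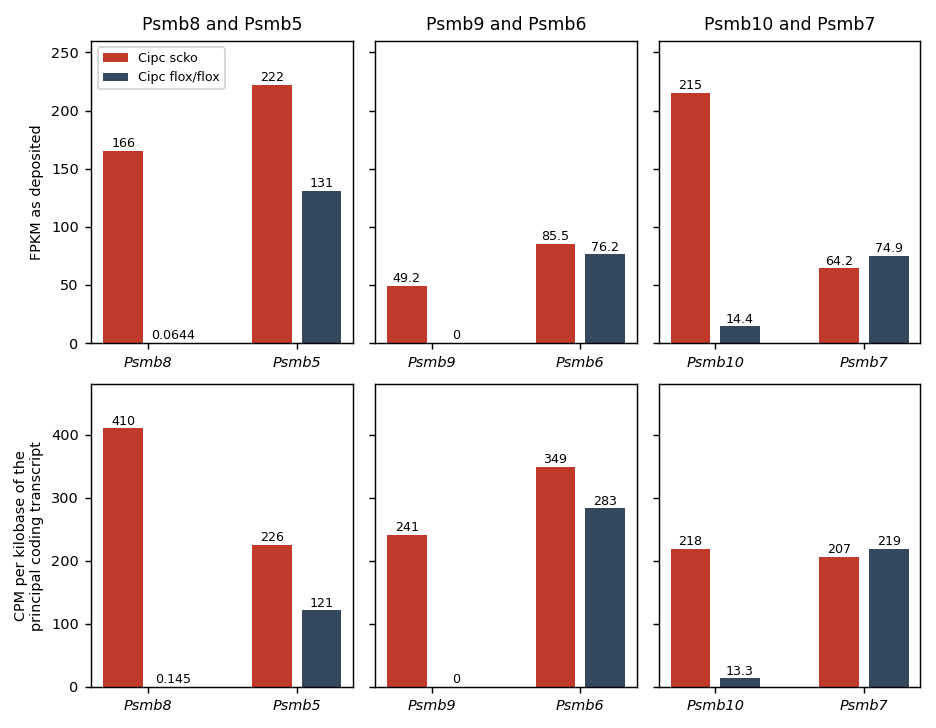
Levels of each induced catalytic subunit and its constitutive counterpart in Cipc scko (red) and Cipc flox/flox (blue), 1 library each, as deposited FPKM (top) and as CPM per kilobase of the principal coding transcript (bottom). Psmb5 is above Psmb8 in Cipc scko on the upper scale (222 and 166) and below it on the lower scale (226 and 410), and the induced genes are at or near 0 in Cipc flox/flox except Psmb10.

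The order of levels among constitutive subunits was similar in the libraries. CPM per kilobase ran from 23.9 (Psma3) to 349 (Psmb6) in Cipc scko, with a median of 138. In Cipc flox/flox it ran from 28.9 (Psma3) to 519 (Psmd8), with a median of 134. Psma3 has near-identical copies in the annotation, among them Gm13835 with 100% identity over 665 aligned bases, so its level and rank are uncertain. Pearson's r of the log2 levels was 0.92 and Spearman's rho 0.90 over the 31 genes. This is a description across genes, which share each library and its length model. The beta ring had the highest median, 226 CPM per kilobase in Cipc scko, against 219 in Cipc flox/flox, and the non-ATPases the lowest in Cipc scko, 71.9 against 119 in Cipc flox/flox. The alpha ring stood at a median of 95.3 in Cipc scko, against 103 in Cipc flox/flox, and the ATPases at 132 in Cipc scko, against 169 in Cipc flox/flox. Of the induced genes, Psmb8 (410) lay above every constitutive subunit in Cipc scko, Psmb9 (241) and Psmb10 (218) lay within their upper range, whereas by FPKM Psmb8 (166) lay below Psmb1 (268), Psmb5 (222), Psmd8 (201) and Psma2 (191). Psme1 (200 CPM per kilobase) lay above Psme2 (83.4) and below its copy Psme2b (319), and reads of those copies cannot be told apart with certainty.

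**Figure D3:**
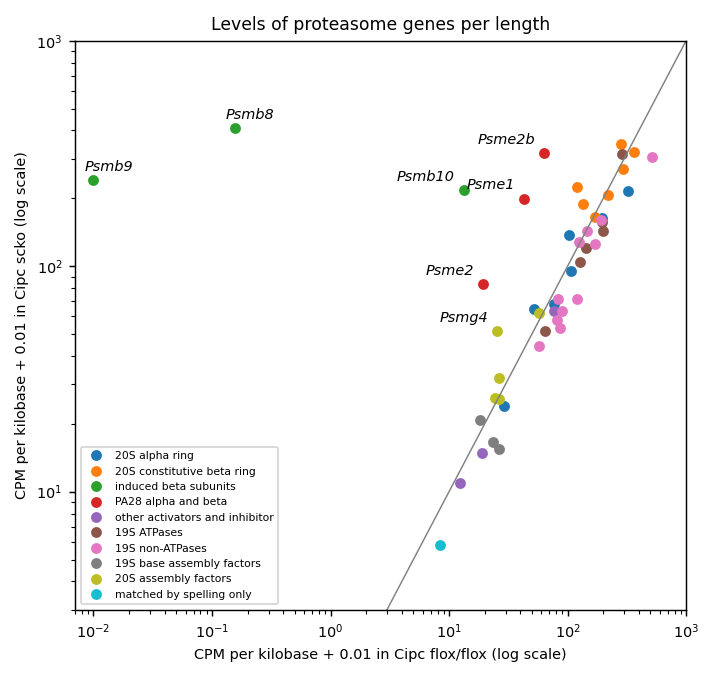
CPM per kilobase of the principal coding transcript, plus 0.01, of 49 proteasome genes in Cipc scko (vertical) against Cipc flox/flox (horizontal), both on log scales, coloured by role, with the line of equality. Constitutive subunits lie along the line, and Psmb8 (410 in Cipc scko, 0.145 in Cipc flox/flox), Psmb9 (241 in Cipc scko, 0 in Cipc flox/flox) and Psmb10 (218 in Cipc scko, 13.3 in Cipc flox/flox) lie far above it.

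The members sit on 16 chromosomes, and the induced genes lie at 3 loci. Psmb9 and Psmb8 lie in the MHC class II region of chromosome 17, with the peptide transporter gene Tap1 between them. Of 11 neighbouring coding genes there, 8 entered and 7 were called higher, against 21.2% of all genes that entered. Tap1 had 8259 counts in Cipc scko, against 4 in Cipc flox/flox (10.91, 9.73 to 12.96), and Tap2, which encodes its partner, 5815 in Cipc scko, against 29 in Cipc flox/flox (7.70). Among class II genes of the locus, H2-DMb1, H2-Ab1, H2-Eb1, H2-Aa and H2-DMa had log2 ratios of 11.09, 10.29, 9.88, 9.62 and 5.69. Brd2, a chromatin reader at the edge of the locus, stood at 216 CPM in Cipc scko, against 278 CPM in Cipc flox/flox (-0.36). Psmb9 and Tap1 run in opposite directions from RefSeq starts 226 bases apart. Their annotated spans also overlap, and the sources used here do not say whether counting used strand, so reads in the overlap cannot be assigned.

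At the Psmb10 locus on chromosome 8, 4 of 10 neighbours entered and 0 were called, against 37.2% of all genes that entered. They were Pskh1 (58.0 CPM in Cipc scko, 29.9 CPM in Cipc flox/flox, 0.96), Slc12a4 (0.51), Edc4 (0.48) and Nutf2 (-0.10). The ratios of these 4 lay within 2-fold. Of the neighbours under the filter, Dpep2, a peptidase gene, had 0 counts in Cipc scko, against 10 in Cipc flox/flox. Ctrl, a digestive protease gene, had 2 in Cipc scko, against 0 in Cipc flox/flox. Lcat had 8 in Cipc scko, against 5 in Cipc flox/flox. The annotation holds Dpep2 under more than 1 identifier, and each is counted among the 10 neighbours. At the Psme1 and Psme2 locus on chromosome 14, 7 of 11 neighbours entered and 4 were called higher, against 21.2% of all genes that entered. Fitm1, a lipid droplet gene, had 397 counts in Cipc scko, against 6 in Cipc flox/flox (6.01). Irf9, which encodes the DNA-binding part of the interferon-activated complex ISGF3, had 1490 in Cipc scko, against 172 in Cipc flox/flox (3.19). Pck2, a mitochondrial enzyme of gluconeogenesis, had a log2 ratio of 1.83 and Rnf31, part of the linear ubiquitin ligase, one of 1.41. Emc9 (0.94), Dcaf11 (0.78) and Ipo4 (0.05) were not called. Emc9 lies between the PA28 genes.

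**Figure D4:**
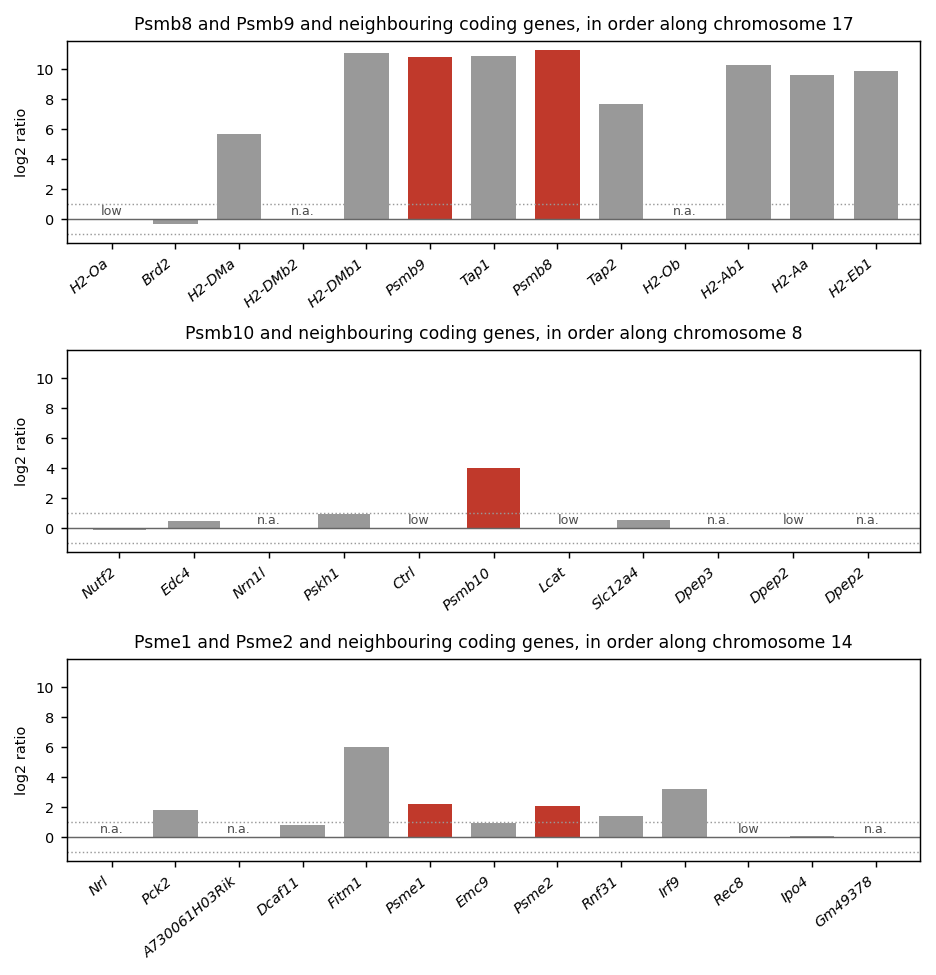
Log2 ratio of scaled counts, Cipc scko over Cipc flox/flox, of the induced proteasome genes (red) and of the 5 nearest coding genes on either side and any between (grey), in order along the chromosome. Bars show genes that entered, dotted lines mark 2-fold, "low" marks genes under the filter and "n.a." genes not analysed here. Psmb9 is drawn at its lower bound. High bars run across the chromosome 17 locus (7 of 8 neighbours called), and 0 of 4 neighbours of Psmb10 were called.

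Genes that work with the proteasome were read from lists. Antigen processing partners, which trim, carry and load the peptides, all entered. Of these 17, 10 were called higher and 0 lower, with a median of 2.22, against 0.01 for all genes. Of all genes that entered, 21.2% were called higher and 15.9% lower. Besides Tap1 and Tap2, the class I heavy chains H2-K1 and H2-D1 had log2 ratios of 6.50 and 5.93, their activator Nlrc5 5.42, the trimming peptidase Erap1 3.19 and B2m 2.41. The lowest were the peptidases Lnpep, 35.2 CPM in Cipc scko, against 62.0 CPM in Cipc flox/flox (-0.82), and Tpp2, 53.0 CPM in Cipc scko, against 89.6 CPM in Cipc flox/flox (-0.76).

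Of 16 interferon signalling genes, 14 were in the table and entered, 8 were called higher and 0 lower, with a median of 1.29. The shares of all genes were 21.2% higher and 15.9% lower. Irf8 had 1536 counts in Cipc scko, against 1 in Cipc flox/flox (10.06). Irf1, known to drive Psmb9 and Tap1, had 3260 counts in Cipc scko, against 229 in Cipc flox/flox (3.90). The lowest were the kinases Tyk2 (33.5 CPM in Cipc scko, 58.6 CPM in Cipc flox/flox, -0.81) and Jak1 (117 CPM in Cipc scko, against 160 CPM in Cipc flox/flox, -0.45). The interferon gamma receptor genes Ifngr1 and Ifngr2 stood at -0.24 and -0.18 and were not called. Of the type I interferon receptor genes, Ifnar2 was called higher (1.27, 1.09 to 1.45) and Ifnar1 was not called (-0.37). Ifng and Ifnb1 were not analysed here.

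The general proteasome lists showed 1 call among 38 genes. Of all genes that entered 37.2% were called, and of those with a mean of at least 50 CPM 26.8%. Of 17 proteasome-bound and ubiquitin receptor genes, 0 were called higher and 1 lower, with a median of -0.37. The lower gene was Usp14, the deubiquitinase of the 19S cap, with 78.1 CPM in Cipc scko, against 166 CPM in Cipc flox/flox (-1.09). Uchl5, the other cap deubiquitinase of this kind, stood at 14.2 CPM in Cipc scko, against 27.1 CPM in Cipc flox/flox (-0.93). Of 15 genes listed for proteasome gene transcription, 0 were called, with a median of -0.07. The list held genes of the NFE2L1 route and also other transcription factors, such as Stat3, Foxo4 and Nfya. Nfe2l1 was the highest, at 255 CPM in Cipc scko, against 152 CPM in Cipc flox/flox (0.74), and Maff the lowest, at 41.7 CPM in Cipc scko, against 68.7 CPM in Cipc flox/flox (-0.72). Of 6 ubiquitin and ubiquitin-activating genes 0 were called, and Uba6, an activating enzyme, was the lowest (-0.74).

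**Figure D5:**
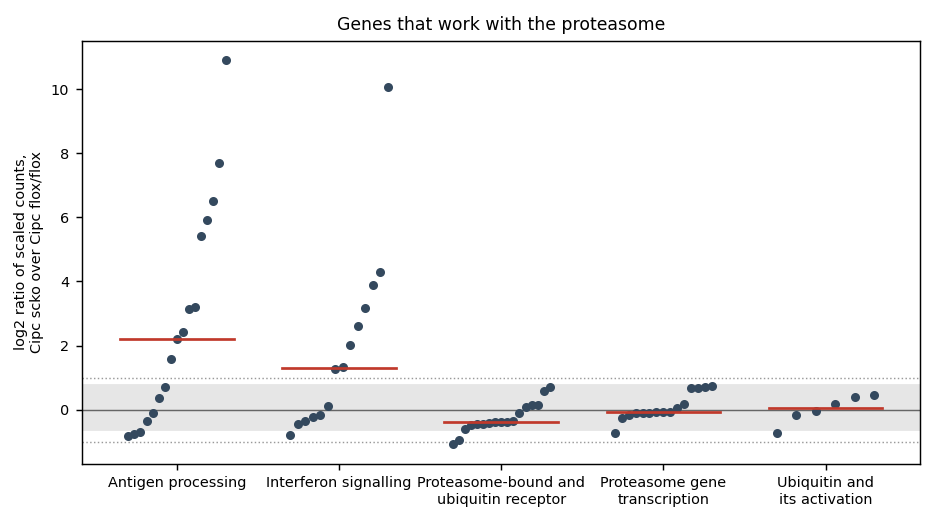
Log2 ratio of scaled counts, Cipc scko over Cipc flox/flox, of genes of 5 lists, 1 point per gene in order of ratio, with the list's median as a red line, the quartile range of all genes in grey and 2-fold as dotted lines. Antigen processing (median 2.22) and interferon signalling (1.29) reach far above the band, whereas the general proteasome, transcription and ubiquitin lists (-0.37, -0.07 and 0.07) stay near it.

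Cells of other types that express the immunoproteasome were looked for with marker lists. The shares over all genes that entered were 21.2% called higher and 15.9% called lower. Of 25 leukocyte markers, 12 were in the table and 7 entered, of which 2 were called higher (Csf1r, 2.30 CPM in Cipc scko, against 0.532 CPM in Cipc flox/flox, and Laptm5, 24 counts in Cipc scko, against 0 in Cipc flox/flox) and 3 lower (Cd68, Cd14 and Coro1a). The 12 in the table summed to 11.2 CPM in Cipc scko, against 52.1 CPM in Cipc flox/flox. Most of the control sum came from Cd68 (1.87 CPM in Cipc scko, against 25.1 CPM in Cipc flox/flox) and Cd14 (1.43 against 21.0 CPM). Of the defining markers, Ptprc, Cd3e and Adgre1 were not analysed here. Of 10 endothelial markers, 6 were in the table and 2 entered, Kdr (6.98 CPM in Cipc scko, against 0.118 CPM in Cipc flox/flox) and Vwf (3.99 CPM in Cipc scko, against 0.768 CPM in Cipc flox/flox), both called higher. Their list summed to 12.2 CPM in Cipc scko, against 1.95 CPM in Cipc flox/flox. Among the endothelial markers under the filter, Tek had 0 counts in Cipc scko, against 11 in Cipc flox/flox. Esam had 0 and Cdh5 had 1 in Cipc scko, against 5 and 2 in Cipc flox/flox. Pecam1 went the other way, with 19 counts in Cipc scko, against 0 in Cipc flox/flox. Of 10 fibro-adipogenic markers 8 were in the table and 7 entered, 2 higher and 4 lower, and their median ratio was -1.12 (log2). Their sum was 3393 CPM in Cipc scko, against 2239 CPM in Cipc flox/flox, and most of it came from the collagen gene Col3a1 (2177 CPM in Cipc scko, against 850 CPM in Cipc flox/flox), which was called higher with Col1a1 (448 CPM in Cipc scko, against 116 CPM in Cipc flox/flox). The other called markers went the opposite way: Pdgfra had 11 counts in Cipc scko, against 147 in Cipc flox/flox, Dcn had 1 in Cipc scko, against 142 in Cipc flox/flox, Cd55 had 1 in Cipc scko, against 198 in Cipc flox/flox, and Gsn had a log2 ratio of -1.12. The part of leukocytes, endothelial cells and fibro-adipogenic cells in the proteasome values was not tested.

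Across promoters, none of the 4 motifs was held by most induced genes. RefSeq windows were found for 43 members (46 windows), 25 of the constitutive subunits (27) and the 5 induced genes (6). The response element core was in 1 of 6 induced windows, 2 of 27 constitutive windows and 3.44% of all 32851, and the gamma-activated site in 1 of 6, 1 of 27 and 8.30%. The antioxidant response element core was in 0 of 6 induced and 4 of 27 constitutive windows (Psmb5, Psmb6, Psmc6 and Psmd12), or 14.8%, against 12.4% of all. The CCAAT box was in 1 of 6 induced windows (Psmb9) and 37.0% of constitutive windows, against 37.4% of all. For these last motifs the shares of constitutive windows were near those of all promoters. That a window lacks these letters says nothing of the factor.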

How the data were processed

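RNA-seq of 2 libraries, 1 per genotype, was analysed. Per the file headers, the authors deposited counts of each Ensembl gene, which are whole numbers, and FPKM. Library preparation used the VAHTS Universal V6 kit, per the labels' protocols. Per the submitters' processing notes, HISAT2 2.0.4, StringTie 1.3.0, CASAVA and the build GRCm38 were involved. The sources used here do not give the counting tool, its strand setting or the annotation release. The deposited FPKM are the counts rescaled (13719 genes counted in both libraries, within 0.1%).

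Genes were annotated with GENCODE vM21 (GRCm38), in which 16116 of 16190 identifiers had a symbol. Counts were scaled with TMM (edgeR 4.0.16, R 4.3.3). No test was possible with 1 library per group: a gene was called by at least 2-fold and a 95% counting interval (SciPy 1.17.1) without equality, among genes with at least 1 CPM in a library and 20 counts over both. A gene at 0 was bounded against 3 counts. The libraries carried no stated molecular identifiers, so reads need not be independent molecules, and intervals and floors cover counting error only. BLAST+ 2.17.0 was used to find near-identical copies (95% identity over 80% of the shorter transcript), which 8 of 50 members had. Promoters came from RefSeq (GRCm38.p6).

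The members and the lists were chosen with earlier results of these data known. Any member may be named by the rule for named genes. Full values were for the induced genes, their counterparts, called members and the highest and lowest of each role. Of other lists, the 2 highest and 2 lowest with at least 5 CPM and the defining markers were named. H2-K1, H2-D1, Nlrc5, Erap1, B2m, Irf1, Ifngr1, Ifngr2, Ifnar1, Ifnar2, Stat3, Nfya and the other markers given were chosen after their values were seen. Some genes that this rule picks are not reported here.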

Additional observations from a re-analysis of the deposited data

How the results depend on the processing

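The libraries were the limit: 1 per group allows no leave-one-out value, and depth was not limiting for members other than Psmb8, Psmb9 and Psmb11. No paired analysis was possible because each group has 1 library. Scaling by totals shifted the median of all genes by -0.14. The constitutive median, -0.25, was -0.38 with totals and -0.38 with FPKM at a pseudocount of 0.1 or 1. It stayed below 0 under every alternative run. The induced median, 4.04, was 3.81 with FPKM at a pseudocount of 1, 4.24 with summed counts and 3.86 with ratios centred on each chromosome, an alternative chosen after seeing the data. Their difference, 4.28, was 7.91 without genes that have a near-identical copy, which leaves 4 induced genes. Members called higher numbered 5 to 8 in place of 7: 5 without such copies, 6 with totals, DESeq2 1.42.0 size factors, FPKM, a limit of 4-fold or chromosome centring, and 8 with a limit of 1.5-fold, which adds Psmb5. Members called lower numbered 5 with that limit (Psmd8, Psmd5, Psmd1, Psmd14 and Psma7) and 1 with chromosome centring (Psmd8), against 0. Psmb8 over Psmb5 in Cipc scko, 0.745 by FPKM, was 1.55 per kilobase of the longest transcript and 1.82 per kilobase of the principal coding transcript, a scale added after seeing the data. Psmb9 over Psmb6 in Cipc scko, 0.576, was 0.391 and 0.689. Psmb10 over Psmb7 was 2.60 and 1.06 in Cipc scko and 0.149 and 0.0606 in Cipc flox/flox, against 3.35 and 0.192 by FPKM. The lengths themselves set these differences. Of 302 alternative values of single members 13 changed sign, in Pomp, Psmc3, Psmd3, Psmd7 and Psmg1, and 0 of 44 values of called members did. The median of the 20S assembly factors, 0.12, was -0.02 with totals.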
